A study of Mus musculus with 14 samples.

Results

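The Cyp4a genes encode cytochrome P450 enzymes that hydroxylate fatty acids at the last, or omega, carbon. The genes described here are Cyp4a12a, Cyp4a12b, Cyp4a14, Cyp4a31 and Cyp4a32. They were chosen by name, with earlier results of these data known. Each was read from the brightest probe set, on average over the arrays, whose annotation gives that symbol and no other. By this rule 4 of the 5 genes have a probe set of their own, of 22180 such genes on the array. Cyp4a32 has none and therefore has no value, and a probe set annotated to it together with Cyp4a10 is described by its number.

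Liver RNA of 14 male C57BL/6 mice was hybridized to Affymetrix arrays, 1 mouse per array. All mice carried Alb-Cre, which makes Cre recombinase under the albumin promoter and so in hepatocytes. Which other liver cells keep their alleles was not examined. Mice with LMNA flx/flx, in which both copies of the gene of lamin A and lamin C can be removed by Cre, are called KO. Mice with LMNA flx/+ are called HET and mice with LMNA+/+ are called WT. On a high-fat diet (HFD) there were 3 KO mice of 35.3 weeks and 3 HET mice of 30 to 30.4 weeks. HFD was 14 weeks of the Surwit diet, and a sugar mixture (55% fructose, 45% sucrose) was added to the water at 42 g/L. On chow there were 3 KO mice of 38.9 weeks, 3 HET mice of 24 to 26.4 weeks and 2 WT mice of 24.6 and 27 weeks. KO mice were older than the controls in every comparison, so that age and genotype cannot be told apart. Mice on HFD were older than those on chow among HET and younger among KO. Age and diet therefore cannot be told apart either. Individual arrays are called by the names in the sample labels, such as B2, and the labels do not say what their letters stand for. The KO arrays on HFD are C2, C3 and C4, and no other group has that letter. Whatever the letter stands for therefore cannot be told apart from that group.

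Omega-hydroxylation opens a side route of fatty acid breakdown. The hydroxylated acids are oxidized further to dicarboxylic acids, which are then shortened in peroxisomes. Several Cyp4a genes of mouse liver, Cyp4a10 and Cyp4a14 above all, are classical targets of PPAR alpha, the nuclear receptor that responds to fatty acids and fibrate drugs. Cyp4a12a differs from them, being a male-predominant gene that depends on androgen and on the male rhythm of growth hormone. It makes the vasoactive lipid 20-HETE from arachidonic acid. The genes lie in 1 cluster, and in the GRCm38.p6 annotation their order is Cyp4a12a, Cyp4a12b, Cyp4a30b, Cyp4a14, Cyp4a10, Cyp4a31 and Cyp4a32, with pseudogenes, predicted genes and an RNA gene between some of them. Such close relatives can share sequence, and a probe set can then carry signal from its neighbours. Values are log2 intensities, and levels of different probe sets are not comparable with each other.

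Lmna was read by a dim probe set at 3.99 ± 0.09 in KO on HFD and 4.15 ± 0.13 in HET on HFD (SD, n = 3 each). On chow it stood at 3.85 ± 0.22 in KO (SD, n = 3), 4.31 ± 0.08 in HET (SD, n = 3) and 4.47 ± 0.05 in WT (SD, n = 2). By limma's moderated test, described below, KO minus HET did not pass on HFD (-0.16, adjusted p = 0.517), where the arrays overlapped. It did not pass on chow either (-0.47, adjusted p = 0.0823), while KO minus WT did (-0.62, adjusted p = 0.0393). Whether this probe set lies in the removed part of the gene was not examined. Arrays of the same group correlated at r of 0.989 to 0.994 across probe sets, and arrays of different groups at 0.980 to 0.994. All 9 measured hepatocyte markers lay above the median of all values in every group. Their mean level was 11.9 to 12.0 on the KO arrays and 12.2 on each HET array on HFD. Of these markers Cps1, Apoa1 and Hnf4a fell in KO against HET on HFD, where 7.56% of all genes passed the test given below. A pair of HET arrays stood low for several Cyp4a probe sets, namely B2 on HFD and F1 on chow. The Cyp4a differences below and the counts of called genes in gene lists, except marker lists, were also computed without each of them. Correlations between genes and mean levels of markers are given for all arrays.

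On HFD all 4 measured Cyp4a genes were higher in KO than in HET livers, by 2.21-fold to 3.61-fold, and no KO array overlapped a HET array for any of them. The share of all genes without such overlap was not computed, so that the lack of overlap only describes these genes. All 4 passed the test, limma's moderated test at an adjusted p under 0.05 over all genes, against 7.56% of all genes in this comparison. Because the genes were chosen with earlier results known, these shares are a description and not a test of enrichment. The largest difference belonged to Cyp4a14 and the smallest to Cyp4a12b. Differences below are KO minus HET on the log2 scale with the standard error from limma.

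Cyp4a14, a classical PPAR alpha target, stood at 11.71, 11.64 and 11.94 in KO livers on HFD, against 10.26, 10.49 and 8.97 in HET livers on HFD. The KO arrays lay close together and the HET array B2 lay far below the other two. The difference was 1.85 ± 0.31 (95% interval 1.17 to 2.53, adjusted p = 0.00331), and without B2 it was 1.38 (adjusted p = 0.00243).

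Cyp4a31, a close relative of Cyp4a10, read 8.01, 8.77 and 8.50 in KO livers on HFD, against 6.88, 6.90 and 6.26 in HET livers on HFD. These KO arrays were the 3 highest of all 14 for this gene. KO exceeded HET by 1.75 ± 0.26 (95% interval 1.19 to 2.31, adjusted p = 0.00149), and by 1.54 without B2 (adjusted p = 0.00678).

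The male-predominant Cyp4a12a had 8.11, 7.59 and 8.46 in KO livers on HFD, against 6.80, 6.73 and 6.70 in HET livers on HFD. Here the HET arrays lay close together and the KO arrays were spread, all above them. The difference came to 1.31 ± 0.21 (95% interval 0.85 to 1.77, adjusted p = 0.00264).

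Its near-identical neighbour Cyp4a12b had 9.72, 9.38 and 9.71 in KO livers on HFD, against 8.34, 8.63 and 8.41 in HET livers on HFD. The lowest KO array was above the highest HET array. This gave 1.15 ± 0.19 (95% interval 0.73 to 1.56, adjusted p = 0.00301).

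Each of these 4 calls held when any 1 of the 14 arrays was left out, with adjusted p-values up to 0.0180, and when F1 and B2 were left out together. With age as a linear term none of the 4 passed. The differences were then 1.96 for Cyp4a12a (adjusted p = 0.133), -0.03 for Cyp4a12b (adjusted p = 0.989), 1.75 for Cyp4a14 (adjusted p = 0.442) and 2.49 for Cyp4a31 (adjusted p = 0.121). That term rests on small age differences within HET and WT groups, since all KO mice of a diet had the same age. It is extended here to a larger age gap, so that the part of age cannot be read from it.

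**Figure D1:**
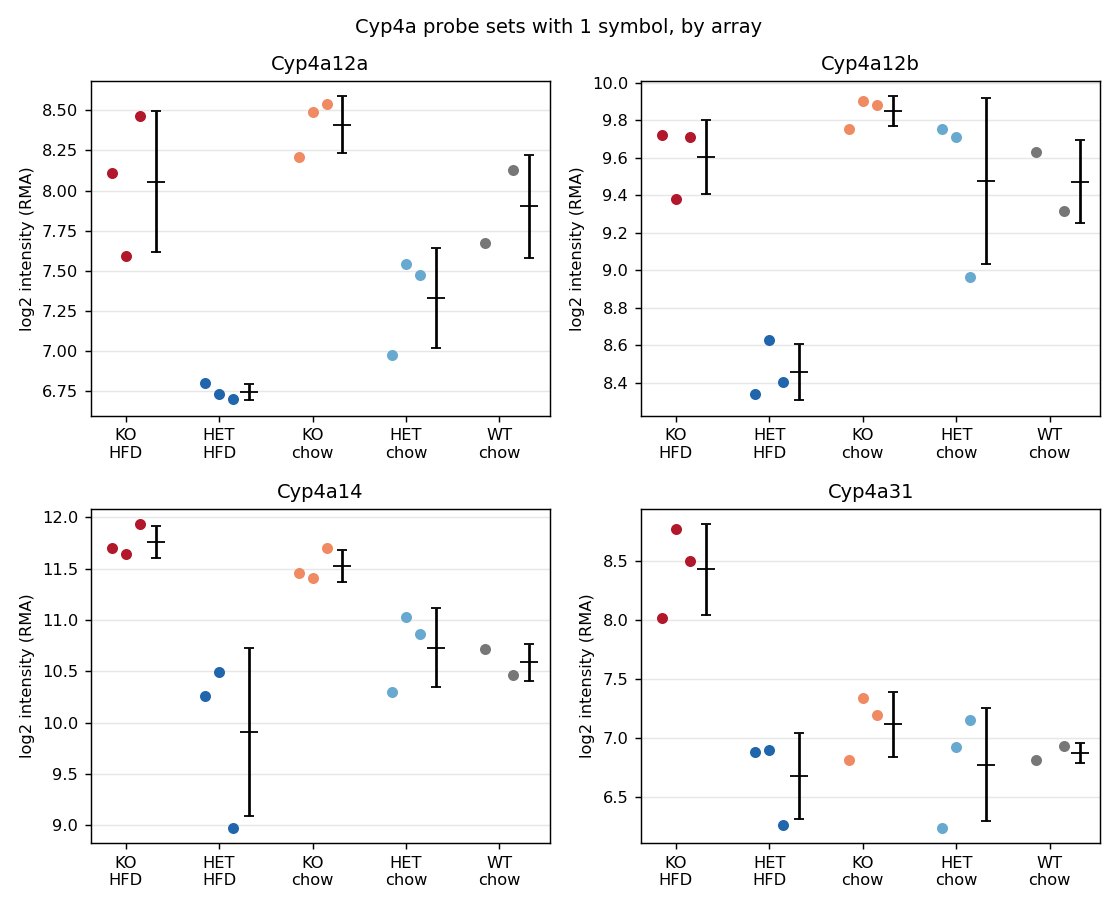
Log2 intensity (RMA) of the 4 Cyp4a genes with a probe set of their own, 1 point per array, with the mean ± SD of each group beside it (n = 3, WT n = 2). On HFD all 3 KO points lie above all 3 HET points in each panel, and each panel has its own axis.

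On chow the genes were also higher on average in KO than in HET livers, but only Cyp4a12a passed the test. That is 1 of 4, against 1.92% of all genes in this comparison. Cyp4a12a stood at 8.21, 8.49 and 8.54 in KO livers on chow, against 6.97, 7.54 and 7.47 in HET livers on chow and 7.67 and 8.13 in WT livers. The KO arrays lay above all HET and WT arrays, and F1 was the lowest HET array. KO exceeded HET by 1.08 ± 0.21 (adjusted p = 0.0214). The call was lost without F1 (0.90, adjusted p = 0.0818), without the KO array H2 (1.04, adjusted p = 0.0830) or I1 (1.02, adjusted p = 0.0944), and when all probe sets were tested together (adjusted p = 0.0585).

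Cyp4a14 on chow read 11.46, 11.41 and 11.70 in KO livers, against 10.30, 11.03 and 10.86 in HET livers and 10.72 and 10.46 in WT livers. The KO arrays were above every control array. KO minus HET was 0.79 ± 0.31 (95% interval 0.11 to 1.47, adjusted p = 0.272) and KO minus WT 0.94 ± 0.35 (95% interval 0.18 to 1.69, adjusted p = 0.293). Neither passed. Without B2, an array that enters these comparisons only through the shared estimate of spread, both did, at adjusted p-values of 0.0439 and 0.0380.

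Cyp4a12b on chow read 9.75, 9.90 and 9.88 in KO livers, against 9.75, 9.71 and 8.97 in HET livers and 9.63 and 9.32 in WT livers. The lowest KO and the highest HET array were level to 2 decimals. KO minus HET was 0.37 ± 0.19 (95% interval -0.04 to 0.78, adjusted p = 0.436), and 0.12 to 0.51 when 1 array was left out.

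Cyp4a31 on chow read 6.81, 7.34 and 7.20 in KO livers, against 6.23, 6.93 and 7.15 in HET livers and 6.81 and 6.93 in WT livers. The groups overlapped. KO minus HET was 0.34 ± 0.26 (95% interval -0.22 to 0.91, adjusted p = 0.644), and 0.07 to 0.53 when 1 array was left out.

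Against WT on chow, 0 of 4 genes passed in KO, where 1.65% of all genes did. Of the 4, limma's unadjusted p was under 0.05 for Cyp4a14 alone, and it was so for 2611 of all 22180 genes. Beside Cyp4a14, the differences were 0.51 ± 0.24 for Cyp4a12a, 0.37 ± 0.21 for Cyp4a12b and 0.24 ± 0.29 for Cyp4a31 (adjusted p = 0.434, 0.566 and 0.856). HET minus WT on chow gave 0 of 4 genes and 0% of all genes, with 954 genes at an unadjusted p under 0.05. Among those was Cyp4a12a, at -0.57 ± 0.24 (adjusted p = 0.999), for which no HET array reached a WT array. Cyp4a12b differed by 0.00 ± 0.21, Cyp4a14 by 0.14 ± 0.35 and Cyp4a31 by -0.10 ± 0.29. The 2 WT arrays limit the precision of both comparisons.

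HFD against chow gave no call among the 4 genes in either genotype, but 2 of the genes came close to the threshold. In HET livers 0 of 4 passed, against 0.198% of all genes. Of the 4 genes 3 had an unadjusted p under 0.05, as did 2272 of all 22180 genes. Cyp4a12b averaged 8.46 ± 0.15 in HET on HFD and 9.48 ± 0.44 in HET on chow (SD, n = 3 each), with no overlap. The difference was -1.02 ± 0.19 (95% interval -1.43 to -0.61, adjusted p = 0.0582), and without the HET array P1, the lowest on chow, it was -1.27 (adjusted p = 0.00272). Cyp4a12a differed by -0.58 ± 0.21 (adjusted p = 0.358), Cyp4a14 by -0.82 ± 0.31 (adjusted p = 0.382) and Cyp4a31 by -0.09 ± 0.26 (adjusted p = 0.946). For Cyp4a14 the value without B2 was -0.35.

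In KO livers 0 of 4 passed, against 0.316% of all genes. Of all 22180 genes 2455 had an unadjusted p under 0.05, and 1 of the 4 did. This was Cyp4a31, which averaged 8.43 ± 0.38 in KO on HFD and 7.11 ± 0.27 in KO on chow (SD, n = 3 each), with no overlap. HFD exceeded chow by 1.31 ± 0.26 (95% interval 0.75 to 1.88, adjusted p = 0.0602). The adjusted p was 0.0397 without F1, 0.0445 without P1, 0.0478 without B2 and 0.0266 without F1 and B2 together. Cyp4a12a differed by -0.36 ± 0.21, Cyp4a12b by -0.24 ± 0.19 and Cyp4a14 by 0.24 ± 0.31 (adjusted p = 0.594, 0.709 and 0.854).

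Whether the difference between KO and HET was itself larger on HFD than on chow was tested as the interaction of genotype and diet. It passed for 0 of 4 genes and for 0.0361% of all genes. Of the 4 genes 3 had an unadjusted p under 0.05, as did 2187 of all 22180 genes. The estimate was 1.41 ± 0.37 for Cyp4a31 (adjusted p = 0.239), 1.06 ± 0.44 for Cyp4a14 (adjusted p = 0.461), 0.78 ± 0.27 for Cyp4a12b (adjusted p = 0.374) and 0.23 ± 0.30 for Cyp4a12a (adjusted p = 0.848). For Cyp4a14 the estimate without B2 was 0.59, and for Cyp4a12a leaving out 1 array gave 0.02 to 0.46. That all 4 genes passed on HFD and 1 on chow is therefore not shown to be a difference between the diets.

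**Figure D2:**
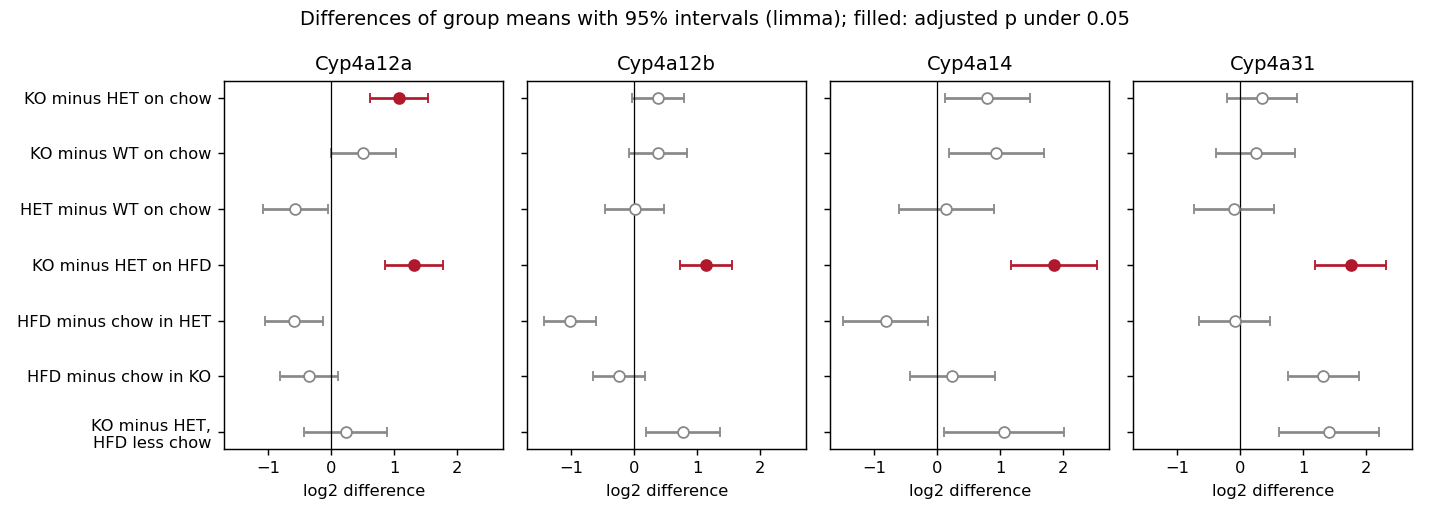
Log2 differences of group means with 95% intervals from limma for 4 Cyp4a genes in 7 comparisons, filled where the adjusted p is under 0.05. Filled points are KO minus HET on HFD for all 4 genes and KO minus HET on chow for Cyp4a12a.

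The order of the groups differed between the genes. For Cyp4a12a it was KO on chow (8.41 ± 0.18), KO on HFD (8.05 ± 0.44), WT on chow (7.90 ± 0.32), HET on chow (7.33 ± 0.31) and HET on HFD (6.74 ± 0.05). Here both KO groups overlapped, as did KO on HFD and WT, while the 3 lower groups did not overlap each other. Cyp4a14 had both KO groups on top, at 11.76 ± 0.15 on HFD and 11.53 ± 0.16 on chow, which overlapped. HET on chow (10.73 ± 0.38), WT (10.59 ± 0.18) and HET on HFD (9.91 ± 0.82) followed, each overlapping the next. For Cyp4a12b HET on HFD (8.46 ± 0.15) lay below every other array. KO on chow (9.85 ± 0.08) was at the top, above KO on HFD (9.60 ± 0.20), HET on chow (9.48 ± 0.44) and WT (9.47 ± 0.22), and these last 3 groups overlapped. For Cyp4a31 KO on HFD (8.43 ± 0.38) lay above every other array, and KO on chow (7.11 ± 0.27), WT (6.87 ± 0.08), HET on chow (6.77 ± 0.48) and HET on HFD (6.68 ± 0.36) followed, each overlapping the next. All are means ± SD with n = 3, or n = 2 for WT.

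Probe sets shared between Cyp4a genes bear on how far these values are separate. Probe set 17417223 is annotated to Cyp4a10, a lauric acid hydroxylase, and to Cyp4a31. It read 10.53, 10.41 and 10.63 in KO livers on HFD, against 9.92, 10.08 and 7.85 in HET livers on HFD. On chow it read 10.71, 10.77 and 10.50 in KO livers, against 9.17, 9.86 and 10.08 in HET livers and 10.03 and 10.14 in WT livers. KO arrays of either diet lay above all control arrays, and the lowest of the controls were B2 and F1. In a fit of all probe sets KO minus HET was 1.24 ± 0.47 on HFD (adjusted p = 0.213) and 0.96 ± 0.47 on chow (adjusted p = 0.505), and neither passed. Without B2 the difference on HFD was 0.52 (adjusted p = 0.282), and without F1 that on chow was 0.69 (adjusted p = 0.762).

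Probe set 17417255 is annotated to Cyp4a32 and Cyp4a10 and was not higher in KO livers. It read 5.81, 5.81 and 5.92 in KO livers on HFD, against 6.02, 6.01 and 5.75 in HET livers on HFD. On chow it read 6.02, 5.67 and 5.81 in KO livers, against 5.41, 6.38 and 6.54 in HET livers and 6.51 and 7.10 in WT livers. Both WT arrays were above all KO arrays, the opposite order to Cyp4a14. KO minus WT was -0.97 ± 0.29 (adjusted p = 0.249) and KO minus HET -0.08 on HFD (adjusted p = 0.923), so neither passed. Without F1 KO minus WT passed, at the same -0.97 (adjusted p = 0.0485), and KO minus HET on chow was -0.62 (adjusted p = 0.248), against -0.27 with F1. Which of the annotated genes gives the signal of a shared probe set was not tested. Cyp4a29 and Cyp4a30b, the other Cyp4a genes with a probe set of their own, averaged 1.29 each, below the median of 2.26 over all values.

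**Figure D3:**
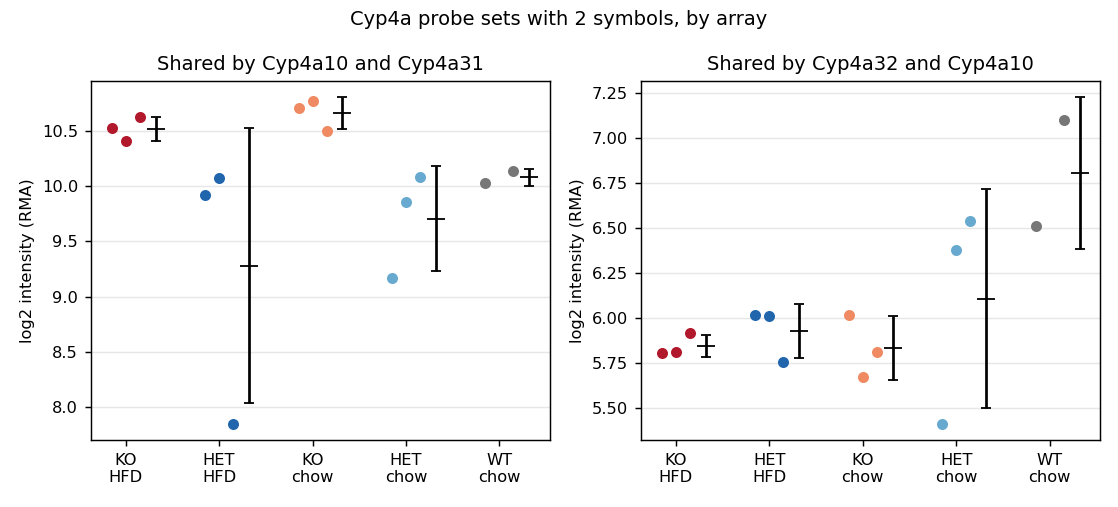
Log2 intensity (RMA) of the 2 probe sets annotated to more than 1 Cyp4a gene, 1 point per array, with the mean ± SD of each group (n = 3, WT n = 2). The left one has its lowest value, 7.85, in HET array B2 on HFD, and the right one has its highest value, 7.10, in a WT array.

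Across the 14 arrays Cyp4a14 followed the shared Cyp4a10 and Cyp4a31 probe set at Pearson r = 0.90, and at r = 0.92 within groups, where B2 and F1 were low for both. Cyp4a14 and Cyp4a31 correlated at r = 0.75, and at 0.63 within groups. Cyp4a31 and the shared probe set that names it correlated less over all arrays, at r = 0.61, and similarly within groups, at 0.64. Cyp4a12a and Cyp4a12b correlated at r = 0.78 over all arrays and at -0.03 within groups. The shared Cyp4a32 and Cyp4a10 probe set correlated with Cyp4a12a, Cyp4a14, Cyp4a31 and the other shared probe set at r between -0.10 and 0.13 over all arrays, and at 0.47 to 0.58 within groups. With Cyp4a12b it had r = -0.12, and -0.58 within groups. These values are descriptions over arrays that share groups, and no test was made.

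The genes most like each Cyp4a gene over the 14 arrays, among 11592 genes above the median level, were different ones for each. They were Serpinb1a (r = 0.96), Gtf2h5 (0.95), Aldh1a7 (0.95), Bak1 (0.94) and Antxr2 (0.93) for Cyp4a14. For Cyp4a31 they were Mapt, Sh3bgrl and Acot2 (r = 0.93 each), Muc13 and Atg4a (0.92 each). For Cyp4a12a they were Tbcd (0.92), Slc27a1, Ildr2 (0.88 each), Snhg11 and Psme1 (0.87 each), and for Cyp4a12b Aprt (0.93), Gstm3 (0.92), Brix1 (0.90), Chaf1b and Gsr (0.89 each).

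Among other PPAR alpha targets, 10 of 28 measured genes rose and 0 fell in KO against HET livers on HFD, where 7.56% of all genes passed, and the median difference of the list was 0.52 where that of all genes was -0.02. Ehhadh, an enzyme of peroxisomal beta-oxidation, rose by 1.41 ± 0.12 (adjusted p = 3.25e-05). Slc27a1, a fatty acid transporter, rose by 2.35 ± 0.27 (adjusted p = 2.67e-04) from a low HET mean of 3.27. Acot2, a mitochondrial acyl-CoA thioesterase, rose by 2.43 ± 0.33 (adjusted p = 8.56e-04). Acadm, the medium-chain acyl-CoA dehydrogenase, rose by 0.51 ± 0.12 (adjusted p = 0.0192). The count was 3 without B2, 4 without the KO array C2, C3 or C4, 4 with age as a linear term or with all probe sets, and 5 in a fit of only the groups compared. On chow 3 of 28 rose and 0 fell in KO against HET livers, where 1.92% of all genes passed, with a median of 0.37. They were Ehhadh (0.78 ± 0.12, adjusted p = 0.00469), the lipid droplet protein gene Plin2 (0.71 ± 0.13, adjusted p = 0.0176) and the hormone gene Fgf21 (1.98 ± 0.45, adjusted p = 0.0424). Fgf21 averaged 2.77 in HET livers on chow, near the median of all values (2.26), so that the size of its rise is uncertain. The count of 3 on chow was 1 without F1, F2, H2 or I1, and 6 without B2. The gene of the receptor itself, Ppara, differed by -0.17 on HFD (adjusted p = 0.823) and by 0.27 on chow (adjusted p = 0.779), and that of its partner Rxra by -0.43 on HFD (adjusted p = 0.0787). Of the 10 measured genes of the receptor and its partners, Pparg, the related receptor of fat cells, rose by 2.21 on HFD (adjusted p = 0.00851) and the coactivator gene Ncoa1 fell by 0.52 (adjusted p = 0.0356), with the Ncoa1 call lost without A2, B1, C2 or C4.

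Of the other male-biased liver genes, the class to which Cyp4a12a belongs, 0 of 19 rose and 11 fell in KO against HET livers on HFD, with a median of -1.02, where 7.56% of all genes passed in either direction. Hsd3b5, a steroid dehydrogenase gene, fell by 6.46 on the log2 scale to a KO mean of 2.59, close to the median of all values (2.26), so that the size of the fall is uncertain. Falls were also found for the major urinary protein gene Mup21 (-2.28), the serpin gene Serpina1e (-2.14) and Cyp7b1, an oxysterol hydroxylase gene (-1.74). Cyp4a12a and Cyp4a12b rose in the same comparison. The counts became 6 falls without C4, 2 with age as a linear term, and 7 falls with 1 rise without B2. On chow 3 of 19 fell in KO against HET livers, with a median of -0.52, where 1.92% of all genes passed. Of these 19 genes 0 fell without I1 and 1 without F1, F2, P1 or H1. Without P1, 3 of these 19 genes rose. Of the 20 female-biased genes 4 rose and 0 fell on HFD, with a median of 0.35, among them Cyp2a4 (3.47), and 0 changed on chow. Cyp2b10 also rose on HFD, at 3.17 to 5.05 on KO arrays and 1.32 to 1.73 on HET arrays, with every HET array below the median of all values, so that the size of its rise is uncertain. Without P1 the numbers that rose were 8 on HFD and 2 on chow. Of 15 genes of growth hormone signalling, 1 rose and 2 fell in KO against HET livers on HFD, where 7.56% of all genes passed, and 0 changed without A2, B2, C2 or C4. On chow 0 rose and 3 fell, where 1.92% of all genes passed, and 1 fell without F2, H2 or I1. In this list Bcl6 (-2.65, adjusted p = 0.0255) and Hnf4a (-0.36, adjusted p = 0.0423) fell on HFD, and Cish rose (1.39, adjusted p = 0.0415). Ghr, Stat5b and Igf1 differed by -0.35, -0.42 and -0.33 on HFD and did not pass (adjusted p = 0.155, 0.0829 and 0.148). The falls on chow were Onecut1 (-2.78, adjusted p = 0.00270), Igfals (-0.80, adjusted p = 0.0264) and Igf1 (-0.58, adjusted p = 0.0311). On HFD Onecut1 read 7.43 to 8.36 on KO arrays and 6.35 to 7.78 on HET arrays.

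**Figure D4:**
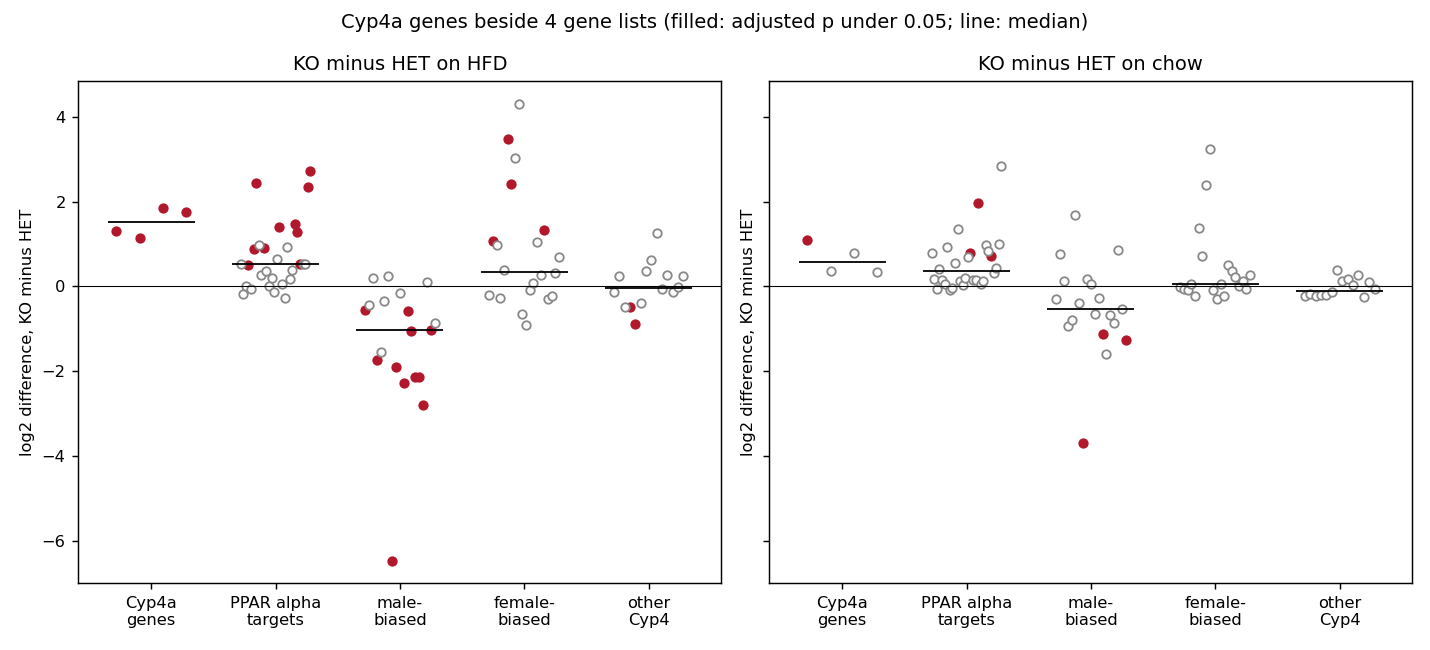
Log2 differences, KO minus HET, of the 4 Cyp4a genes and of 4 lists of other genes, on HFD (left) and on chow (right), filled where limma's adjusted p is under 0.05, with the median of each list as a line. On HFD the Cyp4a genes lie between 1.15 and 1.85, above the medians of all 4 lists. These are 0.52 for PPAR alpha targets, 0.35 for female-biased genes, -1.02 for male-biased genes and -0.03 for other Cyp4 genes.

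Of the Cyp4 genes outside the 5, 14 were measured and 8 of these averaged below the median of all values. On HFD 0 rose and 2 fell in KO against HET livers, where 7.56% of all genes passed. Cyp4f14, of the subfamily that inactivates leukotrienes, fell by 0.90 ± 0.12 (adjusted p = 8.20e-04) and Cyp4f13 fell by 0.50 ± 0.10 (adjusted p = 0.00852), opposite to the Cyp4a genes. No other comparison had a call among these 14 genes.

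Of the enzymes after the hydroxylase in omega-oxidation, 1 of 8 rose on HFD, where 7.56% of all genes passed. It was Aldh3a2, the fatty aldehyde dehydrogenase (0.91 ± 0.23, adjusted p = 0.0284), and 0 rose without B2, C2, C3 or C4. In peroxisomal beta-oxidation 4 of 17 rose and 1 fell. Beside Ehhadh, Crat, a carnitine acetyltransferase, rose by 0.95 and the peroxisomal transporter Abcd2 by 1.07, while the coenzyme A hydrolase Nudt7 fell by 1.05. The number that rose was 2 without B1, C2 or C4. Of 3 genes of electron donors to microsomal P450 enzymes 0 passed, and 1 rose with a trended and robust variance prior. On chow 0 of 8 enzymes after the hydroxylase changed, and 1 of 17 peroxisomal genes rose and 1 fell, where 1.92% of all genes passed.

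Cyp4a enzymes share arachidonic acid with other enzymes that make lipid mediators, and of 18 genes of these 3 rose and 1 fell in KO against HET livers on HFD, where 7.56% of all genes passed. Ephx1, an epoxide hydrolase, rose by 1.22 ± 0.13 (adjusted p = 1.71e-04) and Ptgr1, a prostaglandin reductase, by 1.19 ± 0.26 (adjusted p = 0.0140). Cyp2c29, an epoxygenase, fell by 1.14 ± 0.18 (adjusted p = 0.00233). Ptges, a prostaglandin E synthase, averaged 4.85 in KO and 2.29 in HET livers on HFD (adjusted p = 8.20e-04), the second near the median of all values, so that the size of its rise is uncertain. On chow 1 of the 18 genes passed, where 1.92% of all genes did. It was Ptges again, at 3.65 in KO and 1.94 in HET livers (adjusted p = 0.0241), a call lost without F1, P1, H2 or I1.

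Some markers of other cells also differed between KO and HET livers on HFD, where 7.56% of all genes passed. A call for 1 gene among 9 or 10 markers is near that share. Of 10 macrophage markers 2 rose, Cx3cr1 (2.87) and Trem2 (1.85), and 1 fell, the resident macrophage marker Timd4 (-1.39). The mean level of that list was 6.98 to 7.16 on KO arrays and 6.33 to 6.62 on HET arrays. Of 10 stellate cell markers 3 rose, Lum, Col3a1 and Col1a1, and 1 fell, Reln (-0.76), with a mean level of 6.82 to 6.93 on KO arrays and 6.23 to 6.64 on HET arrays. Of 9 genes listed as lymphocyte markers 1 rose, Ptprc (1.13), which is not specific to lymphocytes. The mean level of these 9 genes was 4.29 to 4.49 on KO arrays and 3.62 to 3.88 on HET arrays. Muc1 rose (1.54) among 6 cholangiocyte markers, whose mean level was 3.71 to 4.22 on KO arrays and 3.34 to 3.41 on HET arrays. Among 10 endothelial markers 0 rose and 1 fell, Stab2, and the mean level overlapped, at 8.01 to 8.16 on KO arrays and 7.87 to 8.02 on HET arrays. Of 9 measured markers of fat, pancreas and kidney, 7 averaged below the median of all values in both HFD groups. Cela1, an elastase gene of the pancreas, was above it and rose, with 6.43, 5.41 and 6.51 in KO livers on HFD, against 4.28, 4.03 and 4.58 in HET livers on HFD (1.82 ± 0.34, adjusted p = 0.00611). The part of these markers in the Cyp4a differences was not tested. In whole liver, fewer cells of a type and less RNA per cell cannot be told apart.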

How the data were processed

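Liver RNA (400 ng per mouse) was measured on 14 arrays. Values are on the log2 scale, 1 per probe set and array, as deposited by the authors, who used RMA per the submitters' processing notes. RMA forces arrays to 1 distribution of probe intensities, so that values are relative to the whole array. The number of arrays limits the precision, and p-values measure the spread between the mice of a group. Of 41345 probe sets, 23521 carry 1 symbol in GEO's platform annotation, 1814 several and 16010 none. The brightest per symbol gave 22180 genes.

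Group means were estimated from the 14 arrays together with limma 3.58.1 in R 4.3.3 (9 residual and 3.83 prior degrees of freedom). In each of 7 comparisons p-values were adjusted by the Benjamini-Hochberg method over all genes, and a gene was called under 0.05. The procedure was tested on simulated data. Genes named beside the Cyp4a genes are Lmna, up to 4 called members of smallest p per list, 5 genes of regulation, and the 5 genes most correlated with each Cyp4a gene. The Cyp4a genes and all lists were chosen with earlier results of these data known. Alternatives were another centring, normalization, filter, probe set rule or variance prior, a fit of only the groups compared, the array letter as a random block, age as a linear term and leaving out each array. After seeing the data, a fit of all probe sets, one without F1 and B2, and, for the shared probe sets, fits without either or both were added.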

Additional observations from a re-analysis of the deposited data

How the results depend on the processing

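Among the Cyp4a results, 633 values under the alternatives kept direction and side of the threshold, 9 lost a call, 13 gained one and 17 changed sign. The KO minus HET calls on HFD were lost only with age as a linear term, at 1.96 for Cyp4a12a, -0.029 for Cyp4a12b, 1.75 for Cyp4a14 and 2.49 for Cyp4a31; this term is fitted from ages that differ little within a group. With it, KO minus HET on chow was 2.77 for Cyp4a12a and -2.65 for Cyp4a12b, KO minus WT -2.60 for Cyp4a12b, HFD minus chow in HET -2.05 for Cyp4a12b (a call gained) and 0.56 for Cyp4a31, HFD minus chow in KO 0.57 for Cyp4a12b, and the interaction -0.80 for Cyp4a12a. It called 201, 124, 1, 249, 271, 132 and 206 genes for KO minus HET and KO minus WT on chow, HET minus WT, KO minus HET on HFD, HFD minus chow in HET, HFD minus chow in KO, and the interaction, against 426, 367, 0, 1677, 44, 70 and 8.

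Cyp4a12a, KO minus HET on chow, was 1.08 with all probe sets and 0.90 without F1 and B2 together, with the call lost in both. Cyp4a14, KO minus WT, was 0.94 without F1 and B2 and gained a call. A dim filter or a trended and robust prior left Cyp4a12b, HFD minus chow in HET, at -1.02 and Cyp4a31, HFD minus chow in KO, at 1.31, with a call gained; the second gained it without F1 and B2 too. HET minus WT for Cyp4a12b was -0.0073 with median centring, -0.0046 with the letter block and -0.14 without F1 and B2, and for Cyp4a31 it was 0.17 without both. A fit of only the groups compared called 216, 162, 3 and 45 genes for KO minus HET and KO minus WT on chow, HFD minus chow in HET and in KO. All probe sets gave 26 for HFD minus chow in HET, 17 in KO and 0 for the interaction, and leaving out F1 and B2 gave 23 for HFD minus chow in HET and 0 for the interaction. HFD minus chow in KO had 110 calls with the trended prior and 44 with the letter block. The interaction had 20 with centring, 30 with the dim filter, 24 with the trended prior and 5 with the letter block.

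Leaving out 1 array gave 0.90 to 1.19 for Cyp4a12a and 0.58 to 0.94 for Cyp4a14 (KO minus HET on chow), 0.81 to 1.06 for Cyp4a14 (KO minus WT), -0.15 to 0.26 for Cyp4a12b, -0.0085 to 0.36 for Cyp4a14 and -0.29 to 0.17 for Cyp4a31 (HET minus WT), -1.27 to -0.88 for Cyp4a12b and -0.36 to 0.12 for Cyp4a31 (HFD minus chow in HET), and 1.14 to 1.52 for Cyp4a31 (HFD minus chow in KO). Genes called ranged from 199 to 520, 154 to 411, 0 to 10, 971 to 1788, 13 to 164, 13 to 119 and 0 to 43, in the order of comparisons above. Arrays without which a call of a Cyp4a gene changes are named beside it in the results. Other causes were not tested. No paired analysis was possible because the labels give no replicate numbers shared between groups.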
